A study of Mus musculus with 6 samples.

Results

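The ephrin, semaphorin, SLIT and netrin families are guidance genes, which encode secreted or membrane-bound cues and their receptors. They were taken by gene name as the ephrins (Efna, Efnb), the Eph receptors (Epha, Ephb), the semaphorins of classes 3 to 7, the plexins, the neuropilins Nrp1 and Nrp2, Robo and Slit genes, netrins (Ntn), Unc5a to Unc5d and Dcc. The names matched 70 of the 24736 genes in the deposited data. They comprise 35 ligand genes, 34 receptor genes and 1 noncoding RNA antisense to a plexin gene (Plxna4os1), which was listed at 0 in every library. Their RNA was compared between 3 libraries of wild-type mouse ESCs (embryonic stem cells, 0 h) and 3 of EpiLCs (epiblast-like cells, 48 h by the labels, whereas the culture methods give 72 h). The ESCs were kept on feeder fibroblasts in LIF (1000 U/ml) and 10% serum. The EpiLCs were kept serum-free in N2/B27 supplemented with bFGF at 10 ng/ml and with LGK974 at 5 µM, a compound that blocks the secretion of WNT ligands, after plating steps that separate ESCs from feeders. All cells derive from the XY HM1 TetON line, which carries the rtTA transactivator at Rosa26, so the replicates are cultures of 1 line. Serum, LIF, feeders, bFGF, LGK974 and time changed together between the groups, and their contributions cannot be told apart.

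Guidance cues were first studied in growing axons, but the same molecules sort, attach and repel cells of the early embryo. Ephrins stay on the cell surface, ephrin-A proteins by a lipid anchor and ephrin-B proteins by a transmembrane segment, and they activate Eph receptor tyrosine kinases on a touching cell. Class 3 semaphorins are secreted and act through a neuropilin that holds the ligand and a class A plexin that signals, whereas semaphorins of classes 4, 5 and 6 are membrane proteins that bind plexins directly. SLIT proteins bind ROBO receptors, and netrins bind DCC, neogenin and UNC5 receptors.

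Libraries held between 16967741 and 35096210 expected counts, so that 3 counts, the least taken as detection, correspond to between 0.0855 and 0.177 CPM (counts per 1000000 counts), for counting error only. The cells matched their labels: the 8 ESC markers were all lower and the 6 EpiLC markers all higher in EpiLCs. The ESC libraries also held fibroblast transcripts. The summed level of 18 fibroblast markers was 488, 2380 and 176 TPM (a relative transcript abundance corrected for transcript length) for ESC replicates 1, 2 and 3, and 99.2 to 120 TPM for EpiLCs, and 10 of the 17 that could be tested were lower in EpiLCs. Of these markers 16 were ordered replicate 2 over 1 over 3 among ESCs, and Lum was close to 0. Primitive streak markers were highest in ESC replicate 1, at 443 TPM in sum against 178 and 138 TPM in replicates 2 and 3, and in EpiLCs were highest in replicate 3 (54.5 TPM against 9.92 and 9.09 TPM). Primitive endoderm markers were also lower in EpiLCs, with 5 of 8 tested lower and 1 higher, at 33.7 to 57.4 TPM in sum over the 10 listed in ESC and 11.3 to 12.3 TPM in EpiLC libraries, and Ttr was at or near 0. The part of these cells in the lower guidance genes was not tested. Of the 24 lower genes described below, Efna1, Efnb1, Epha2, Nrp1, Nrp2, Sema3a, Sema3b, Sema3c, Sema3f, Slit2, Unc5b and Unc5c had the ESC replicate order of the fibroblast markers, and Efna3 and Sema6d that of the summed streak and primitive endoderm markers.

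Of the 70 genes, 63 had enough counts for the quasi-likelihood test of edgeR, which was fitted to all 14468 genes that passed the same filter. At an adjusted p of at most 0.05, 42 passed (background, over all genes tested, 45.4%), of which 18 were higher in EpiLCs (28.6% of those tested, against 22.6% of all genes tested) and 24 were lower (38.1%, against 22.8%). Changes of more than 1 on the log2 scale were found for 9 higher genes (background 8.78%) and 19 lower genes (background 11.5%). The median log2 fold change of the 63 genes was -0.20, where that of all genes tested was 0.00. Over all 63 genes tested, whatever their test result, the TPM of every EpiLC library lay above that of every ESC library for 17 (27.0%, background 33.8%) and below it for 23 (36.5%, background 25.6%), and the libraries overlapped for the rest. Of 33 ligand genes tested 8 were higher and 15 lower, and of 30 receptor genes 10 were higher and 9 lower. The 7 genes that could not be tested were Dcc, Epha5, Epha6, Ntn5, Plxnb3, Sema3g and Plxna4os1, each with a mean below 0.3 TPM in both groups. By a rule for size and level (adjusted p at most 0.05, absolute log2 fold change above 1, and a mean of at least 5 TPM in the higher group) 18 genes are described in every library. Of these, 4 rose and 14 fell. In bulk RNA, fewer cells that express a gene and less RNA per cell cannot be told apart.

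**Figure D1:**
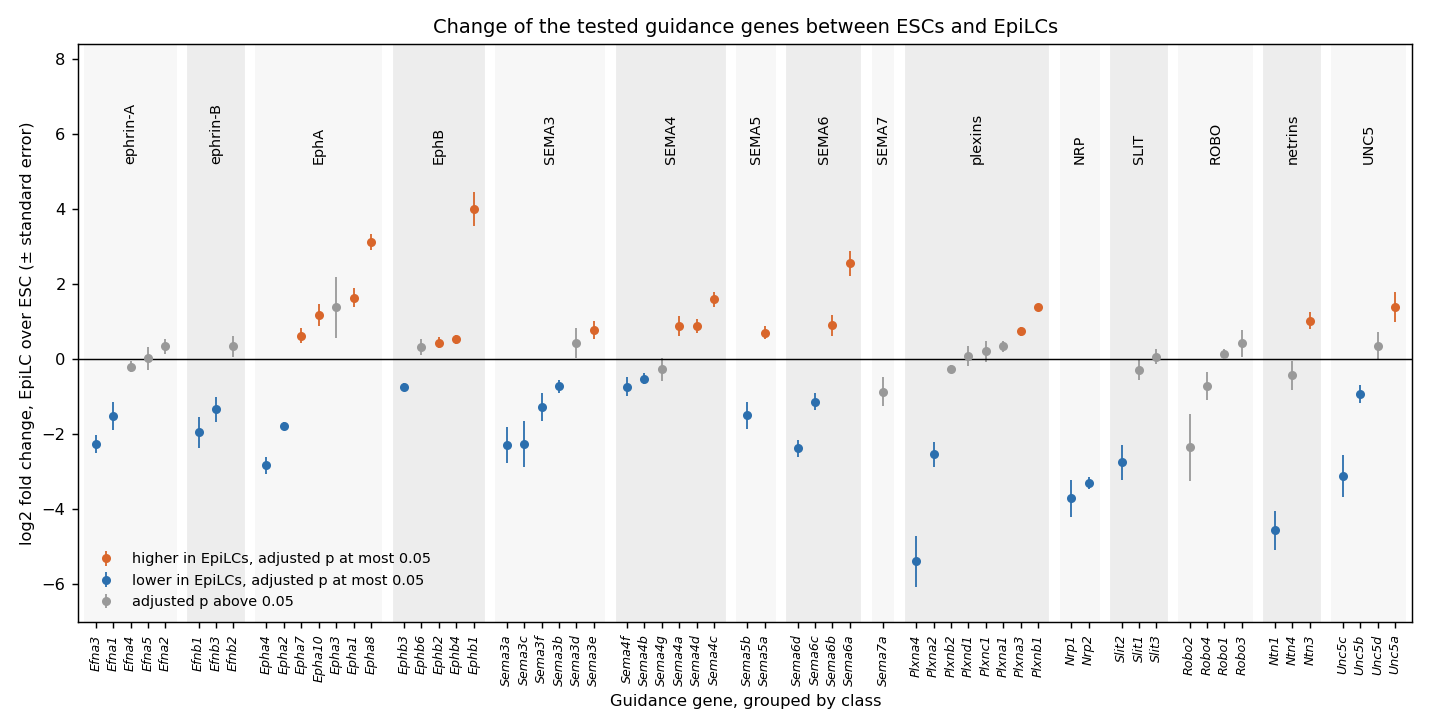
Log2 fold change from ESCs to EpiLCs (y axis, with standard error) for the 63 guidance genes tested (x axis), grouped by class. Orange and blue points passed the adjusted p of 0.05 as higher and lower in EpiLCs, grey points did not. Both neuropilins lie below -3, and Eph receptors lie on both sides of 0.

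The Eph receptors changed from a set led by Epha2 to one led by Epha1. Of 12 Eph receptor genes tested, 7 were higher (background 22.6%) and 3 lower in EpiLCs, the latter close to the background of 22.8%. Epha2, a receptor prominent in epithelia (chromosome 4, 141301221 to 141329384 on GRCm38), had 97.0, 102 and 83.6 TPM in ESCs, given here and below in the order of replicates 1, 2 and 3, against 27.1, 32.0 and 26.3 TPM in EpiLCs. Every EpiLC library was below every ESC library (log2 fold change -1.78, standard error 0.10, adjusted p = 8.20e-05). Epha1 (chromosome 6, 42358487 to 42373314), another receptor for ephrin-A ligands, was at 33.2, 15.2 and 21.2 TPM in ESCs and at 72.5, 76.5 and 75.9 TPM in EpiLCs. The EpiLC libraries were all higher and lay closer together than the ESC libraries (1.64, standard error 0.25, adjusted p = 0.00256). The ratio of Epha1 to Epha2 TPM was thus between 0.15 and 0.342 in ESC libraries and between 2.39 and 2.89 in EpiLC libraries. Epha4, which binds ephrins of both classes (chromosome 1, 77367182 to 77515107), was at 31.7, 33.0 and 36.9 TPM in ESCs and at 6.42, 3.52 and 4.86 TPM in EpiLCs. Its groups were well apart, and it fell by 2.83 on the log2 scale (standard error 0.22, adjusted p = 2.07e-04).

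The 9 EphA genes summed to 156 ± 10.1 TPM in ESCs (SD, n = 3) and to 119 ± 4.43 TPM in EpiLCs (SD, n = 3), with no overlap of libraries. The two-sided exact permutation test gave p = 0.1, the smallest that 3 against 3 libraries allow. Epha2 made up 60.3% and Epha4 21.7% of the sum in ESCs, and Epha1 made up 62.7% and Epha2 23.8% in EpiLCs. In CPM, which weights long transcripts more, the log2 ratio of the sums was -0.66 against -0.39 in TPM.

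The sequence before the annotated gene start is shown for this pair of receptors, which moved in opposite directions, from the RefSeq table of GRCm38.p6. The part outside the gene body is printed 5′ to 3′ on the gene's strand. Capitals mark the GC box GGGCGG and the TCF/LEF core TCAAAG, on either strand.
Epha1, chr6:42373315-42373518, minus strand: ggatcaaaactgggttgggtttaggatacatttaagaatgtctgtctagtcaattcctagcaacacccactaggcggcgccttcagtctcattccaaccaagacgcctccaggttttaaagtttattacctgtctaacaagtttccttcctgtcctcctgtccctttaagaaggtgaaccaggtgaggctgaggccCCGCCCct
Epha2, chr4:141300971-141301220, plus strand: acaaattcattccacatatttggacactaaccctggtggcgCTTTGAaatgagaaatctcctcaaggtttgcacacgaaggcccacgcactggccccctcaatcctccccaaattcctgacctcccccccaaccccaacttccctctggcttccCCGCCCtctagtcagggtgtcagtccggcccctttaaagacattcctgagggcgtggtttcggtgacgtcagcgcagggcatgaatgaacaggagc
The 250 bases for Epha2 held 1 TCF/LEF core and 1 GC box. The 204 bases printed for Epha1 held 1 GC box, and its full window of 250 bases, which reaches into the gene body, held 3.

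The remaining EphA genes were low or moved little. Epha8 rose from 0.4 ± 0.07 to 3.66 ± 0.373 TPM (SD, n = 3 each; log2 fold change 3.12, standard error 0.21, adjusted p = 1.32e-04), and Epha10 from 0.147 to 0.357 TPM (1.17, adjusted p = 0.0167). Epha10 passed the test in 2 of 6 fits that left out 1 library, those without ESC replicate 2 or 3 (adjusted p up to 0.0614 in the others). Epha7 was higher by 0.62 (adjusted p = 0.0419), with 1 EpiLC library at 4.62 TPM below the highest ESC library at 5.01 TPM, and passed only without ESC replicate 2 or EpiLC replicate 3 (adjusted p up to 0.144 in the others). Epha3 was at 0.10, 0.51 and 0.02 TPM in ESCs and at 0.47, 0.59 and 0.43 TPM in EpiLCs, and its difference did not pass the test (1.38, adjusted p = 0.204). Epha5 had 2 or 3 counts in each ESC library and 10 to 23 in each EpiLC library, and Epha6 had 0 in ESCs and 1 to 4 in EpiLCs, both below the filter.

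Among EphB receptors, which bind ephrin-B ligands, Ephb1 rose most. It was at 0.27, 0.08 and 0.32 TPM in ESCs and at 4.79, 2.67 and 4.24 TPM in EpiLCs, so that it went from near the limit of detection to a low level in each library (4.01, standard error 0.45, adjusted p = 6.94e-04). Ephb4, known from blood vessel development, was the most abundant of them, at 30.2, 22.1 and 27.1 TPM in ESCs and at 41.2, 40.6 and 37.5 TPM in EpiLCs (0.53, standard error 0.12, adjusted p = 0.00997). Ephb3 was lower in each EpiLC library, at 9.0 ± 0.445 against 14.5 ± 1.68 TPM (SD, n = 3 each; -0.74, adjusted p = 0.00241). Ephb2 was higher by 0.44 (adjusted p = 0.0460), but of the 6 fits that left out 1 library it passed only in that without ESC replicate 3 (adjusted p up to 0.146 in the others). Ephb6, whose kinase domain is inactive, did not pass the test (0.32, adjusted p = 0.252). The 5 genes summed to 46.7 ± 4.56 TPM in ESCs, below the 60.2 ± 1.96 TPM of EpiLCs (SD, n = 3 each).

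Of 8 ephrin genes, all of them tested, 4 were lower in EpiLCs (background 22.8%), 4 did not pass the test and 0 were higher (background 22.6%). Efna3, a lipid-anchored ligand of EphA receptors, was the most abundant ephrin-A in ESCs, at 33.0, 22.9 and 19.7 TPM, and was at 4.86, 6.30 and 5.13 TPM in EpiLCs. All EpiLC libraries were lower (-2.26, standard error 0.23, adjusted p = 5.03e-04). Efna1 was at 6.03, 6.39 and 3.55 TPM in ESCs and at 1.60, 2.86 and 1.25 TPM in EpiLCs (-1.52, standard error 0.38, adjusted p = 0.0157). Its groups did not overlap but lay close, and the adjusted p was 0.0663 without EpiLC replicate 1 and 0.0518 without EpiLC replicate 3. These genes are neighbours on chromosome 3, 32.9 kb apart, with Efna4 a further 10.5 kb beyond Efna3. Efna4 averaged 15.8 ± 2.31 TPM in ESCs against 14.2 ± 1.14 TPM in EpiLCs (SD, n = 3 each; -0.20, standard error 0.15, adjusted p = 0.296). Whether its change differed from those of its neighbours was not tested. Efna2 (0.35, adjusted p = 0.180) and Efna5 (0.02, adjusted p = 0.955) did not pass the test either.

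The bases before the Efna3 start are shown because it had the largest fall among ephrins. Capitals mark the GC box as above, of which it held 3.
Efna3, chr3:89322940-89323189, minus strand: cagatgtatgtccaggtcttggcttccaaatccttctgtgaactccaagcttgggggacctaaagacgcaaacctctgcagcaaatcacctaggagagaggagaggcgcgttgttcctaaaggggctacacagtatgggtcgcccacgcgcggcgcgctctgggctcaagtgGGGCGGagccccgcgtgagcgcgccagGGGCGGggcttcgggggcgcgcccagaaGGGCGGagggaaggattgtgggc

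Efnb2, a transmembrane ephrin, was the main ephrin-B in both states. It was at 31.9, 34.1 and 15.4 TPM in ESCs and at 40.9, 29.5 and 35.9 TPM in EpiLCs, and its groups overlapped (0.34, standard error 0.29, adjusted p = 0.361). Efnb1 was at 7.84, 11.95 and 3.69 TPM in ESCs and at 1.65, 2.11 and 2.48 TPM in EpiLCs (-1.95, standard error 0.42, adjusted p = 0.00910). The ESC libraries of Efnb1 were ordered as the fibroblast markers were, and without ESC replicate 2 its log2 fold change was -1.52 (adjusted p = 0.0115). Efnb3 was at 10.4, 5.22 and 5.50 TPM in ESCs and at 3.31, 1.99 and 3.33 TPM in EpiLCs (-1.34, standard error 0.34, adjusted p = 0.0172). It was highest in ESC replicate 1, which also had the most streak transcripts, and without that library the log2 fold change was -0.97 (adjusted p = 0.0406). Without EpiLC replicate 2 its adjusted p was 0.0560.

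**Figure D2:**
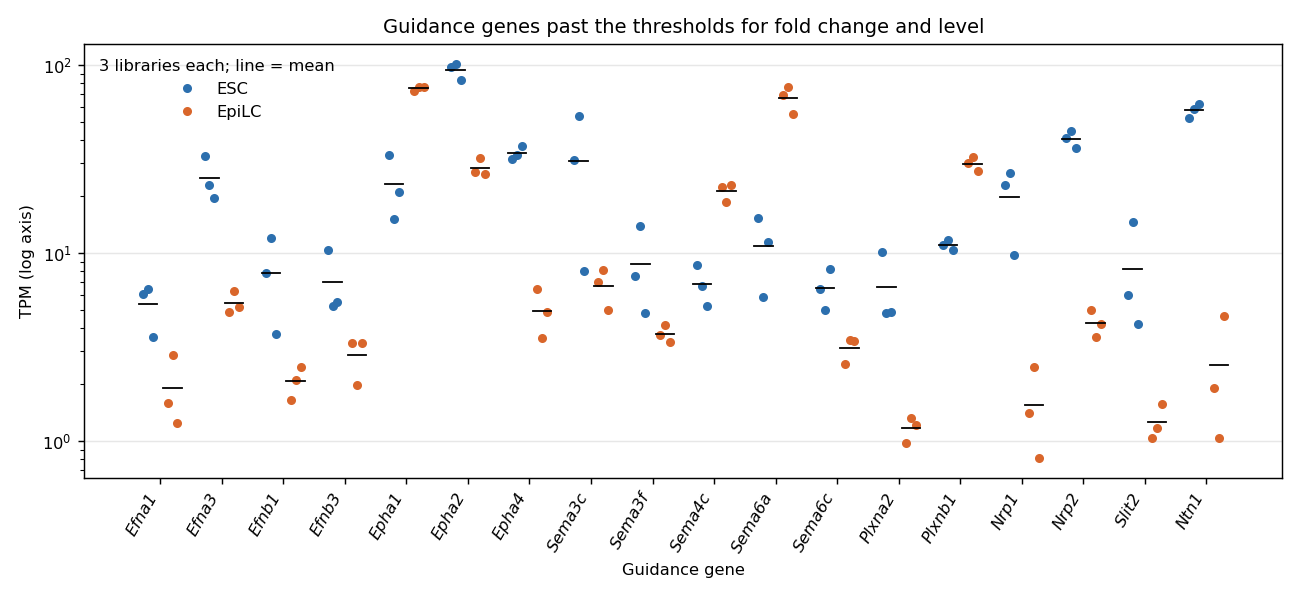
TPM on a log axis (y axis) of the 18 guidance genes that passed the thresholds for fold change and level (x axis). Blue points are the 3 ESC libraries, orange points the 3 EpiLC libraries, in replicate order from left to right, and lines are means. Sema3c is the gene whose groups overlap.

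Both neuropilin genes fell in EpiLCs, Nrp1 to 0.0765 and Nrp2 to 0.102 times its ESC level. Nrp2 (chromosome 1, 62703317 to 62818692), a co-receptor for class 3 semaphorins and for VEGF proteins, was at 40.7, 44.3 and 36.3 TPM in ESCs and at 4.95, 3.55 and 4.21 TPM in EpiLCs. It was 9.83-fold lower (log2 fold change -3.30, standard error 0.15, adjusted p = 4.62e-05), with little spread within groups. Nrp1 (chromosome 8, 128358591 to 128505476) was at 22.9, 26.6 and 9.76 TPM in ESCs and at 1.40, 2.46 and 0.81 TPM in EpiLCs. All EpiLC libraries were far below the lowest ESC library (-3.71, standard error 0.50, adjusted p = 0.00153). Both genes were ordered replicate 2 over 1 over 3 in ESCs, with ESC replicate 2 at 1.22 times replicate 3 for Nrp2 and 2.73 times for Nrp1. Without ESC replicate 2 the log2 fold changes were -3.23 (adjusted p = 6.41e-05) and -3.43 (adjusted p = 0.00214). The neuropilins are also endothelial genes, and of 6 endothelial markers tested 5 were lower in EpiLCs (48.5 TPM or more in sum over the 8 listed in each ESC and 13.9 TPM or less in each EpiLC library). The largest fall among these was that of Kdr (7.73 to 0.34 TPM, log2 fold change -4.54, adjusted p = 0.00136), Pecam1, which ESCs also express, fell by 2.82 on the log2 scale, Tie1 had 4 to 16 counts in ESC and at most 1 in EpiLC libraries, and Emcn was at or near 0 throughout. The part of such cells in the fall was not tested.

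The bases before the Nrp2 start are shown as those of the gene with the lowest adjusted p in the families. They held 5 GC boxes, of which a pair overlaps, and 1 TCF/LEF core, all in capitals.
Nrp2, chr1:62703067-62703316, plus strand: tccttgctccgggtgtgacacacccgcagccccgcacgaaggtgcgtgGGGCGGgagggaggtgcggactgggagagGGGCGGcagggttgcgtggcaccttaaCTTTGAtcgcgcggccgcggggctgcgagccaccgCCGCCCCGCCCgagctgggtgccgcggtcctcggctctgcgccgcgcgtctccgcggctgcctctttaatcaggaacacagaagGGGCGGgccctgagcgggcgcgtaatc

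The plexins, which are the signalling receptors for semaphorins, did not fall as a class. They summed to 123 ± 13.9 TPM in ESCs, against 147 ± 14.9 TPM in EpiLCs (SD, n = 3 each), with overlapping libraries (two-sided exact permutation p = 0.2). Of 8 tested, 2 were higher (25.0%, background 22.6%), 2 lower (25.0%, background 22.8%) and 4 did not pass the test, so both shares were close to the background. Plxna1, a signalling partner of neuropilins, had the highest mean over all libraries, at 41.0, 57.3 and 40.0 TPM in ESCs and at 61.8, 67.0 and 52.9 TPM in EpiLCs (0.34, standard error 0.15, adjusted p = 0.104). It passed the test without ESC replicate 2 (0.52, adjusted p = 0.00506). Plxnb2, close to it in level, was at 47.8 ± 4.36 and 41.5 ± 3.93 TPM (SD, n = 3 each; -0.25, adjusted p = 0.0541).

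Plxnb1, the receptor for SEMA4D, was at 11.1, 11.7 and 10.4 TPM in ESCs and at 30.0, 32.4 and 27.2 TPM in EpiLCs. The groups were well separated (1.38, standard error 0.08, adjusted p = 9.10e-05), and its share of all plexin TPM went from between 8.60% and 9.55% to between 20.1% and 20.7%. Plxna3 was also higher (0.74, adjusted p = 0.00240). Plxna2 and Plxna4, both receptors for class 6 semaphorins, fell. Plxna2 was at 10.1, 4.81 and 4.83 TPM in ESCs and at 0.98, 1.32 and 1.21 TPM in EpiLCs (-2.54, standard error 0.32, adjusted p = 0.00114). Plxna4 was at 4.87, 1.00 and 1.93 TPM in ESCs and at 0.08, 0.06 and 0.05 TPM in EpiLCs, and had the largest log2 fold change of the families (-5.39, standard error 0.67, adjusted p = 0.00110). Both were highest in ESC replicate 1, the library with the most streak transcripts. Without it the log2 fold changes were -2.11 (adjusted p = 7.20e-04) for Plxna2 and -4.60 (adjusted p = 0.00110) for Plxna4. Among EpiLCs, neither gene was highest in replicate 3, the EpiLC library with the most streak transcripts. Plxnc1 and Plxnd1 did not pass the test, and Plxnb3 had at most 7 counts in any library.

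Class 3 semaphorins, the secreted ligands of neuropilins, included 4 lower (background 22.8%) and 1 higher gene (background 22.6%) of 6 tested. Sema3c was at 31.2, 53.3 and 8.0 TPM in ESCs and at 7.03, 8.12 and 4.94 TPM in EpiLCs, so that ESC replicate 3 fell among the EpiLC libraries (-2.25, standard error 0.61, adjusted p = 0.0222). Without ESC replicate 2 its log2 fold change was -1.59 (adjusted p = 0.0392). It lost significance without ESC replicate 1 (adjusted p = 0.0517) or any single EpiLC library (adjusted p from 0.0594 to 0.0813). Sema3f was at 7.51, 13.9 and 4.77 TPM in ESCs and at 3.65, 4.12 and 3.34 TPM in EpiLCs (-1.28, standard error 0.37, adjusted p = 0.0271). Its log2 fold change was -0.78 without ESC replicate 2 (adjusted p = 0.0253), and its adjusted p was 0.0679 to 0.0888 without any single EpiLC library. Sema3a fell from 3.13 ± 1.85 to 0.650 ± 0.270 TPM (SD, n = 3 each; -2.29, adjusted p = 0.00853, and -1.72 with adjusted p = 0.00812 without ESC replicate 2). These 3 genes and Sema3b (-0.72, adjusted p = 0.0142) all had the replicate order of the fibroblast markers in ESCs, and the part of feeder RNA in their fall was not tested.

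Sema3e, which binds Plexin-D1 without a neuropilin, was the class 3 gene that rose. It was at 6.88, 6.44 and 3.84 TPM in ESCs and at 11.1, 11.2 and 8.30 TPM in EpiLCs (0.78, standard error 0.23, adjusted p = 0.0274), and led the class in EpiLCs with 44.0% of its TPM. Without EpiLC replicate 1 or 2 its adjusted p was 0.0900 and 0.0843, and that of Sema3b was 0.0655 and 0.0612. Sema3a and Sema3e lie 422 kb apart on chromosome 5 and moved in opposite directions. Sema3d did not pass the test.

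The membrane-bound semaphorins of classes 4 and 6 had a higher summed TPM in every EpiLC library than in any ESC library. For class 4 it was 62.1 ± 8.72 TPM among ESC and 87.4 ± 3.33 TPM among EpiLC libraries, and for class 6 it was 22.7 ± 6.72 and 74.7 ± 11 TPM (SD, n = 3 each). In both classes the two-sided exact permutation p was 0.1, the smallest allowed. Sema6a, a ligand of the plexins A2 and A4, made up most of class 6 in EpiLCs. It was at 15.3, 5.83 and 11.4 TPM in ESCs and at 69.4, 76.4 and 54.7 TPM in EpiLCs, 5.92-fold higher (2.56, standard error 0.33, adjusted p = 0.00118), and its share of class 6 TPM was between 38.8% and 55.1% in ESC and between 86.9% and 91.0% in EpiLC libraries. Sema6c moved the other way, at 6.42, 4.95 and 8.20 TPM in ESCs and at 2.55, 3.43 and 3.39 TPM in EpiLCs (-1.13, standard error 0.22, adjusted p = 0.00668). Sema6d was also lower (3.23 ± 0.501 to 0.650 ± 0.140 TPM, SD, n = 3 each; -2.38, adjusted p = 3.80e-04), and Sema6b was higher (0.91, adjusted p = 0.0375). With 1 library left out Sema6b passed only without ESC replicate 2 or 3 (adjusted p up to 0.103 in the others).

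In class 4, Sema4c was at 8.64, 6.66 and 5.24 TPM in ESCs and at 22.5, 18.7 and 23.1 TPM in EpiLCs, 3.04-fold higher with no overlap (1.60, standard error 0.20, adjusted p = 0.00101). Sema4d, the ligand of plexin B1, was at 16.9, 14.4 and 23.6 TPM in ESCs and at 34.4, 38.8 and 32.8 TPM in EpiLCs (0.89, standard error 0.18, adjusted p = 0.00806), and its receptor gene Plxnb1 rose as well. Sema4a was higher (0.89, adjusted p = 0.0352), but with 1 library left out it passed only without ESC replicate 3 (adjusted p up to 0.114 in the others). Sema4b, the leading gene of the class in ESCs with 46.9% of its TPM, was lower (29.1 ± 5.13 to 21.1 ± 1.12 TPM, SD, n = 3 each; -0.52, adjusted p = 0.0203), and missed the threshold without any single EpiLC library (adjusted p up to 0.0723). Sema4f was lower by the test (-0.73, adjusted p = 0.0464) but in none of the 6 fits that left out 1 library (adjusted p from 0.0542 to 0.155), and Sema4g did not pass it.

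Both class 5 genes were low and moved in opposite directions. Sema5a was at 2.06, 1.52 and 1.46 TPM in ESCs and at 2.71, 2.72 and 3.10 TPM in EpiLCs (0.71, standard error 0.17, adjusted p = 0.0131), and Sema5b fell from 1.62 ± 0.574 to 0.597 ± 0.17 TPM (SD, n = 3 each; -1.49, adjusted p = 0.0139). Sema7a, which is lipid-anchored, was at 8.01, 5.24 and 3.74 TPM in ESCs and at 3.03, 4.72 and 1.91 TPM in EpiLCs, with overlapping groups (-0.87, standard error 0.39, adjusted p = 0.107).

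**Figure D3:**
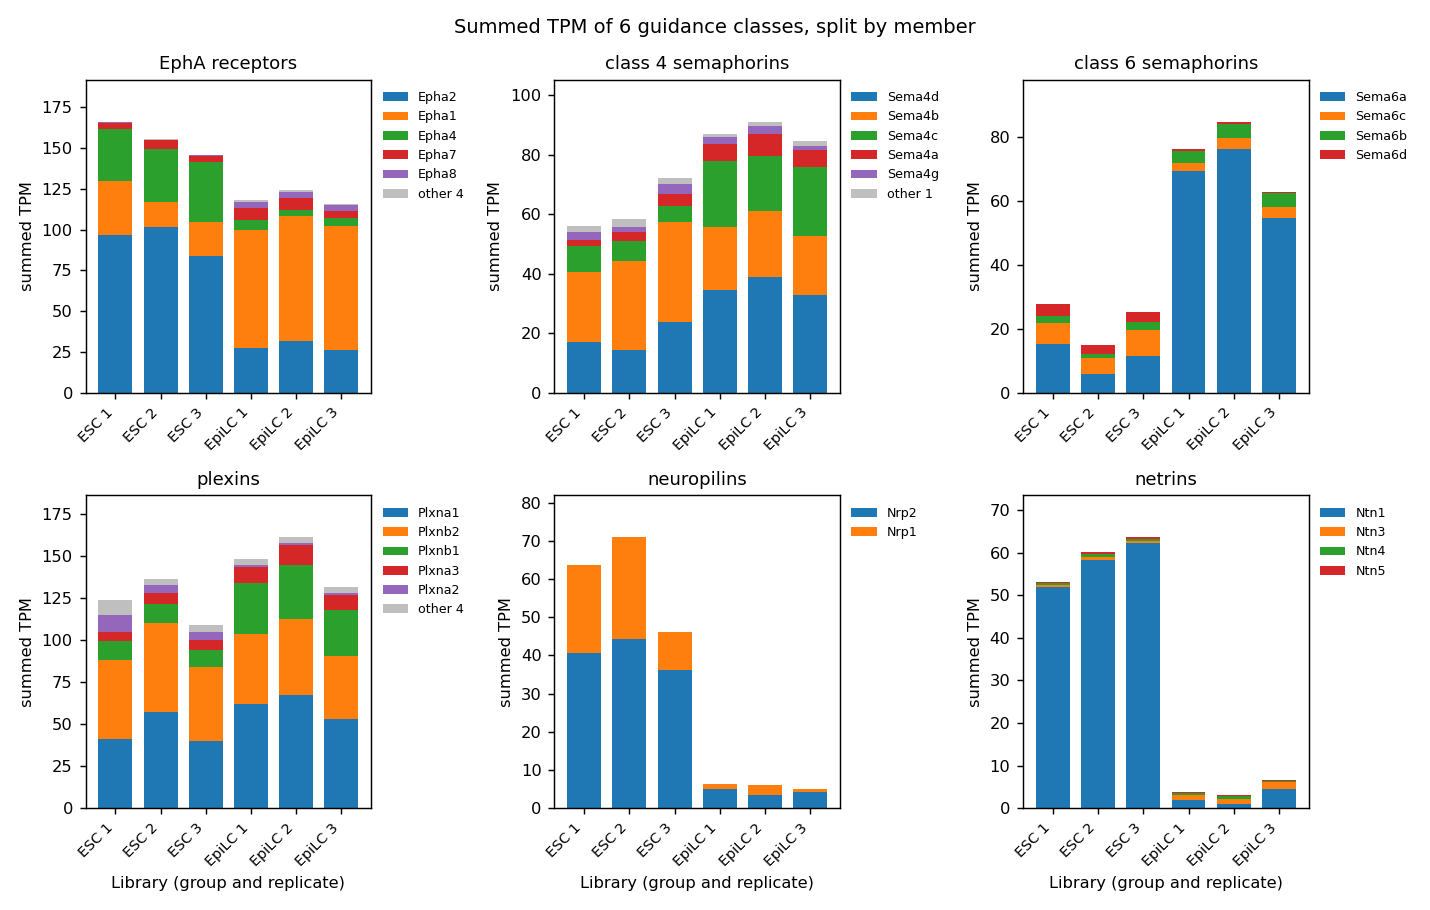
Summed TPM per library (y axis, from 0) of 6 guidance classes, each bar split by member, for ESC and EpiLC replicates 1 to 3 (x axis). Neuropilin and netrin bars are low in EpiLCs, Sema6a makes the class 6 bars tall, and Epha1 replaces Epha2 as the largest part of the EphA bars.

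Netrin-1 had the largest fall among the guidance genes at 5 TPM or more. Ntn1 (chromosome 11, 68209364 to 68386826), a secreted cue that also acts on cell survival through its receptors, was at 51.9, 58.2 and 62.2 TPM in ESCs and at 1.92, 1.03 and 4.61 TPM in EpiLCs. It was 23.6-fold lower (-4.56, standard error 0.52, adjusted p = 7.47e-04). The ESC libraries were close together, whereas EpiLC replicate 3, which also had the most streak transcripts of the EpiLC libraries, kept more Ntn1 than the others. Among ESCs, however, Ntn1 was lowest in replicate 1, the ESC library with the most streak transcripts. Without EpiLC replicate 3 the log2 fold change was -5.33 (adjusted p = 6.50e-04). Netrins summed to 58.9 ± 5.28 TPM in ESCs, against 4.57 ± 1.88 TPM in EpiLCs (SD, n = 3 each), of which Ntn1 made up 97.4% and 55.2%. Ntn3 was higher (0.627 ± 0.0814 to 1.32 ± 0.15 TPM, SD, n = 3 each; 1.03, adjusted p = 0.00855), Ntn4 did not pass the test, and Ntn5 was too low to be tested.

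Among netrin receptors, Unc5b was the main one in both states, with 96.9% of the UNC5 and DCC sum in ESCs and 94.5% in EpiLCs. It was at 47.0, 61.0 and 28.0 TPM in ESCs and at 24.2, 27.4 and 22.3 TPM in EpiLCs (-0.93, standard error 0.25, adjusted p = 0.0222). The groups nearly touched, and the ESC order was that of the fibroblast markers. Without ESC replicate 2 the log2 fold change was -0.66 (adjusted p = 0.0330), and the gene missed the threshold without ESC replicate 1 or any single EpiLC library (adjusted p up to 0.0787). Unc5c, also in the fibroblast order, fell from 0.927 ± 0.500 to 0.110 ± 0.0458 TPM (SD, n = 3 each; -3.11, adjusted p = 0.00451), and Unc5a rose from 0.427 ± 0.205 to 1.19 ± 0.194 TPM (SD, n = 3 each; 1.39, adjusted p = 0.0243). With 1 library left out Unc5a passed only without ESC replicate 2 or 3 (adjusted p up to 0.0779 in the others). Unc5d did not pass the test, and Dcc had 2 to 5 counts per library. Neo1, which encodes the netrin receptor neogenin, averaged 18.2 TPM in ESCs against 18.4 TPM in EpiLCs (-0.04, standard error 0.09, adjusted p = 0.762).

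Of 7 SLIT and ROBO genes tested, 1 passed the test (background, over all genes tested, 45.4%). Slit2, a secreted repellent, was at 5.97, 14.6 and 4.21 TPM in ESCs and at 1.03, 1.17 and 1.58 TPM in EpiLCs. All EpiLC libraries were lower (-2.75, standard error 0.47, adjusted p = 0.00396), and ESC replicate 2 was well above the other ESC libraries. Without ESC replicate 2 the log2 fold change was -2.06 (adjusted p = 8.37e-04). Slit3, the main SLIT gene, was at 17.9, 15.6 and 10.5 TPM in ESCs and at 17.9, 15.3 and 14.6 TPM in EpiLCs, with overlapping groups (0.07, standard error 0.19, adjusted p = 0.784). Slit1 did not pass the test. None of the 4 ROBO receptor genes passed it, in edgeR's quasi-likelihood test with Benjamini-Hochberg adjustment. Robo1, with 89.6% of the ROBO sum in ESCs and 96.1% in EpiLCs, was at 21.5, 15.6 and 20.7 TPM in ESCs and at 23.3, 22.6 and 19.9 TPM in EpiLCs (0.13, standard error 0.13, adjusted p = 0.438). Robo2 was at 0.71, 3.25 and 0.24 TPM in ESCs and at 0.38, 0.19 and 0.26 TPM in EpiLCs (-2.35, adjusted p = 0.0696), with the highest value in the ESC library that also had the most fibroblast transcripts.

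The spread among ESC replicates was compared between the families and the fibroblast markers. The ratio of ESC replicate 2 to ESC replicate 3 had a median of 11.6 for the 17 fibroblast markers tested (range 0.953 to 68.9). For the 24 lower guidance genes it had a median of 1.21 (0.518 to 6.67), and 1 of them, Sema3c, reached 4. These genes were taken because they passed the test, which a wide spread among ESC replicates makes less likely. The markers were taken whatever their result. Robo2 and Epha3, with ratios of 13.5 and 25.5, did not pass the test and are not among the 24. The medians are therefore of unlike sets, and no conclusion is drawn from them. Of the 24 lower genes 12 had the order replicate 2 over 1 over 3 in ESCs, against 26.0% of all genes tested and 26.1% of all lower genes. Without ESC replicate 2, 23 of the 24 still passed the test. The part of feeder RNA in the levels of these lower genes was not tested.

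**Figure D4:**
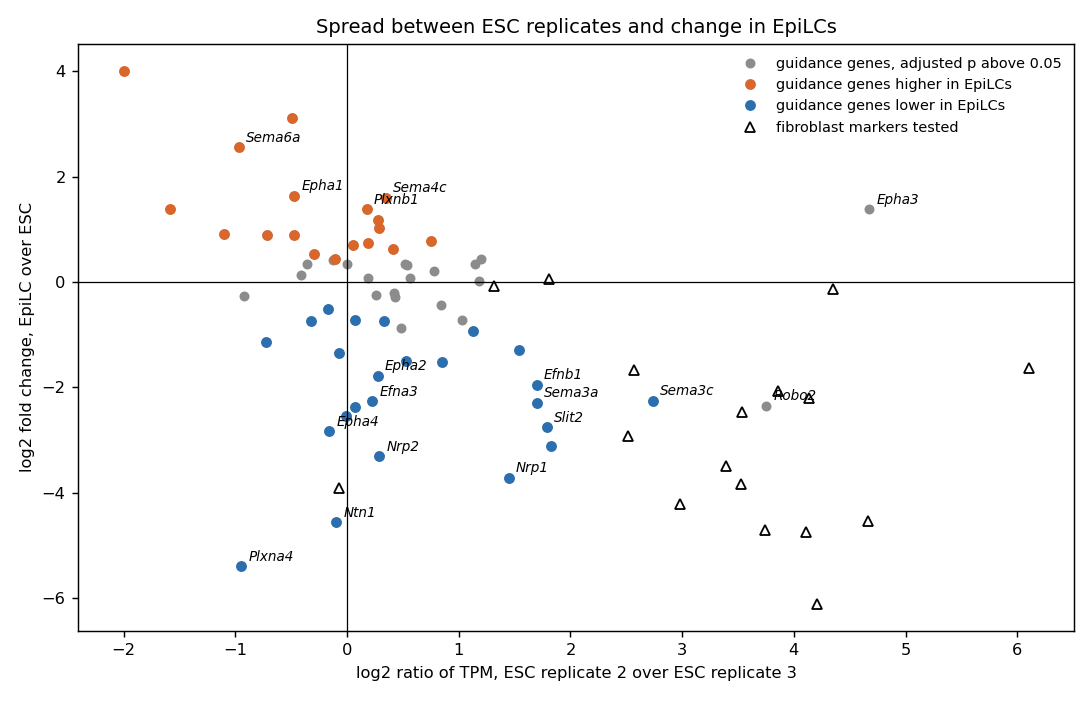
Log2 fold change from ESCs to EpiLCs (y axis) against the log2 ratio of TPM between ESC replicates 2 and 3 (x axis) for the tested guidance genes (circles, coloured by test result) and the 17 fibroblast markers tested (triangles). Most fibroblast markers lie to the right of the lower guidance genes, among which Sema3c lies furthest right. Epha3 and Robo2, which did not pass the test, lie among the markers.

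Other ligands, adhesion co-receptors, cytoplasmic effectors and proteases of these pathways were examined as a list of 63 genes, of which 61 were tested. In EpiLCs 14 were higher (23.0%) and 15 lower (24.6%), with a median log2 fold change of 0.04, close to the background of 22.6% and 22.8%. The genes at 5 TPM or more that passed the test with the largest changes are given below, while Mical2 (-2.58, adjusted p = 0.0572) and Flrt2 (-1.96, adjusted p = 0.0502), both in the fibroblast order, did not pass it. Chl1 (2.10, adjusted p = 0.0184) and Dscaml1 (1.84, adjusted p = 0.0116), which encode adhesion molecules, and Vav3 (1.46, adjusted p = 0.00354) were higher and Farp2 (-1.21, adjusted p = 0.0236) was lower at means of at most 3.65 TPM. The collapsin response mediators Crmp1 (34.2 to 145 TPM on average, log2 fold change 2.03, adjusted p = 1.33e-04), Dpysl2 (11.6 to 35.6 TPM, 1.56, adjusted p = 1.36e-04) and Dpysl5 (20.5 to 46.0 TPM, 1.11, adjusted p = 0.00869) rose, although Dpysl3 (-0.99, adjusted p = 0.0901) and Dpysl4 (0.48, adjusted p = 0.0960) did not pass the test. Of the Src family kinases, which relay Eph signals, Yes1 fell from 99.9 to 30.8 TPM (-1.74, adjusted p = 8.69e-05) and Src by 0.37 on the log2 scale (adjusted p = 0.0214), and Fyn rose from 16.2 to 30.6 TPM (0.87, adjusted p = 3.30e-04). Enah, an actin regulator downstream of ROBO, fell from 102 to 45.2 TPM (-1.23, adjusted p = 1.58e-04). Grip1, a scaffold that binds ephrin-B (1.2), and Met, a partner of plexin-B receptors (1.08), rose, and the small GTPase gene Rnd1 (-1.05) and the membrane protease gene Mmp14 (-1.19) fell. Mmp14 was 3.02 times higher in ESC replicate 2 than in replicate 3. Both missed the threshold without any single EpiLC library (adjusted p up to 0.101 for Mmp14 and 0.0835 for Rnd1), and Mmp14 also without ESC replicate 1. Of the neural markers fixed as a list, Tubb3, Dcx and Neurod1 were higher in EpiLCs, and Sox1 and Pax6 did not pass the test, at 0.39 to 0.86 TPM and 1.21 to 1.95 TPM in EpiLCs.

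Stretches of 250 bases before gene starts were available for 59 of the 70 genes, with 75 starts. They were rich in CpG, with a median of 15 CpG against 6 over all 32841 such windows of RefSeq genes. The GC box GGGCGG was present in 70.7% of them and in 32.7% of all windows. The TCF/LEF core TCAAAG was present in 5.33% (13.8% of all windows) and the SOX core ACAATG in 9.33% (10.7%). The longer words ATGCAAAT (OCT) and TCAAGGTCA (ESRRB) occurred in 0 of the 75 windows, against 1.60% and 0.387% of all windows, and CCACACCC (KLF) in 4.0%, against 3.20%. Both strands were searched. Windows of higher and lower genes had a median of 12 and 17 CpG, and held the GC box in 20 of 25 and 17 of 24 windows.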

How the data were processed

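The authors trimmed reads of 76 nt with cutadapt 1.16, mapped them with STAR 2.5.2a and counted them by strand with RSEM 1.3.0 against mm10 RefSeq genes. The values deposited by the authors are expected counts of RSEM, without normalization, which divide multi-mapped reads between genes, and TPM. Reads of similar family members can be split between genes in this way. The culture methods give 72 h for EpiLCs, whereas the labels and the study's account of its results give 48 h.

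Expected counts were rounded, normalized by TMM, filtered with filterByExpr and tested with edgeR 4.0.16 (quasi-likelihood) in R 4.3.3, with Benjamini-Hochberg adjustment over all 14468 genes tested. Levels are deposited TPM. Alternatives were DESeq2 1.42.0, other normalizations and filters, limma 3.58.1 on log2(TPM + 1) and log2(TPM + 0.1), a replicate block and leaving out each library. The genes and lists were chosen with earlier results of these data known. The tests were tried on simulated counts. Genes given in every library passed a rule on adjusted p, fold change and level, or had the highest mean TPM of their class. Epha3, Ephb1, Plxna4, Robo2 and Sema3e are given in every library outside that rule. The 10 pathway genes with the largest changes among those that passed the adjusted p at 5 TPM or more were named. Other family members are named to account for the class, and Chl1, Dpysl3, Dpysl4, Dscaml1, Farp2, Flrt2, Mical2, Src and Vav3 were named after their values were seen. Gene positions and sequences are from RefSeq GRCm38.p6, the assembly of mm10. The replicates are labelled as biological, and p-values measure the spread between them.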

Additional observations from a re-analysis of the deposited data

How the results depend on the processing

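None of the 42 significant guidance genes changed sign in any alternative run, and 27 of them (16 lower, 11 higher) passed the threshold in every fit that left out 1 library. Across those 6 fits the number of higher genes was 11 to 19 (18 with all libraries) and of lower genes 17 to 25 (24), with 11 higher genes without EpiLC replicate 1 and without EpiLC replicate 2. Of the pathway list, 7 to 21 were lower (15 with all libraries), with 7, 8 and 8 without EpiLC replicates 1, 2 and 3. Under the other settings, 16 to 19 guidance genes were higher and 21 to 26 lower. With log2 changes above 1, 9 higher and 19 lower genes became 6 and 14 with limma on log2(TPM + 1), which understates low genes, so the number higher moved by 1.5 times. A replicate block gave 19 higher and 26 lower genes, with Plxna1 and Sema7a among those gained. Deviations from the group means correlated at 0.01, 0.19 and 0.17 over genes for equal replicate numbers 1, 2 and 3 and at -0.21 to 0.08 for unequal ones. Replicates 1 did not correlate best with each other, so the numbers were not taken to pair the samples. In summed CPM, the log2 ratio was -0.35 for ephrin-A, -0.66 for EphA, 0.34 for class 5 semaphorins and -0.79 for SLIT, against -0.58, -0.39, 0.06 and -0.41 in TPM. The cause of these shifts was not tested. Leaving out 1 library gave -0.33 to 0.11 for ephrin-B (-0.06 with all), reversed to 0.09, 0.11 and 0.06 without ESC replicate 1, ESC replicate 2 and EpiLC replicate 2, and -0.02 to 0.16 for class 5 semaphorins. Slit3, not significant, ranged from -0.11 to 0.22 and reversed to -0.11 without ESC replicate 3 and to -0.02 without EpiLC replicate 1. Depth limits genes with fewer than 3 counts in a library.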
